A study of Mus musculus with 11 samples.

Results

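Clone 16 is 1 of 11 clonal lines of mouse embryonic stem cells, and the transcripts of nearly all of its expressed chromosome 3 genes stood above the mean of the other 10 clones. The genes described are the 463 on chromosome 3 with a mean of at least 5 CPM (a gene's count scaled to the total of its library), out of 1000 chromosome 3 genes in the table and 10355 genes at that level in all. A further 9027 genes at that level lie outside chromosomes 3, 14 and 15 and serve for comparison. The clone and the chromosome were picked because of this same difference, so every difference of clone 16 from the other 10 is a description and carries no test.

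All clones share 1 genetic background and 1 treatment. All derive from EBRTcH3 cells, in which the ROSA26 promoter drives a tetracycline-controlled transactivator. Each clone was picked from sparsely plated cells sorted for high eGFP after piggyBac transposition, and holds several barcoded reporters driven by the mouse PGK promoter at positions of its own. All were kept in conditioned medium with leukemia inhibitory factor and inhibitors of MEK (PD0325901) and GSK-3 (CHIR99021). The reporter positions were not used here. With 1 library per clone, what is particular to clone 16 and what is particular to its culture or library cannot be told apart.

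Embryonic stem cells in culture are known to gain and lose whole chromosomes and chromosome arms. Genes on a gained chromosome are, as a rule, transcribed roughly in proportion to the copies present, while single genes can depart from that level, and subunits of protein complexes made in excess are often removed after translation. DNA copy number was not measured here, so 1.5-fold is used only as a level of RNA.

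The clone 16 library was the smallest, with 10846005 counts in genes against 12260732 to 16868500 in the other 10, and 15910 genes had a count in it against 15949 to 16634. A level of 3 counts corresponded to 0.282 CPM in clone 16 and 0.174 to 0.247 CPM in the other 10. Markers of naive pluripotent cells (8 of 8 in the table) summed to 8763 CPM in clone 16 and 6717 to 8514 in the other 10, so clone 16 was above all 10. Of the 8, Sox2 lies on chromosome 3 and stood at 1057 CPM in clone 16 and 718 to 884 in the other 10. The sum thus carries part of the chromosome 3 difference. Pou5f1 stood at 943 CPM in clone 16 and 855 ± 69.5 in the other 10 and Nanog at 832 CPM in clone 16 and 743 ± 90.8 in the other 10. The sums over markers of primitive endoderm (4.89 CPM in clone 16, 2.86 to 8.70 in the other 10), mesoderm (14.6 against 5.34 to 18.8), trophoblast (30.2 against 9.33 to 37.3), fibroblasts (16 against 11.1 to 28.4) and neural cells (53.4 against 51.3 to 124) lay within the other 10. Foxa2 and Dcn were at 0 in clone 16. In bulk RNA a smaller number of cells of a kind and less RNA per cell cannot be told apart.

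Each gene's difference was the log2 of (CPM + 0.5) in clone 16 minus the mean of the same over the other 10. The 463 chromosome 3 genes had a median difference of 0.58, a 1.495-fold higher level in clone 16, and 436 of them had a positive one. The median over the 9027 comparison genes was -0.01. Chromosome 3 genes held 5.72% of all counts in clone 16 and 3.73 to 3.97% in the other 10 (median 3.87%). When every other clone was set in turn against the remaining 10, the chromosome 3 median was -0.10 to -0.02, slightly under 0 since clone 16 was then among the remaining ones. For clone 16 the medians of the other chromosomes, leaving out 14 and 15, were -0.07 to 0.04.

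**Figure D1:**
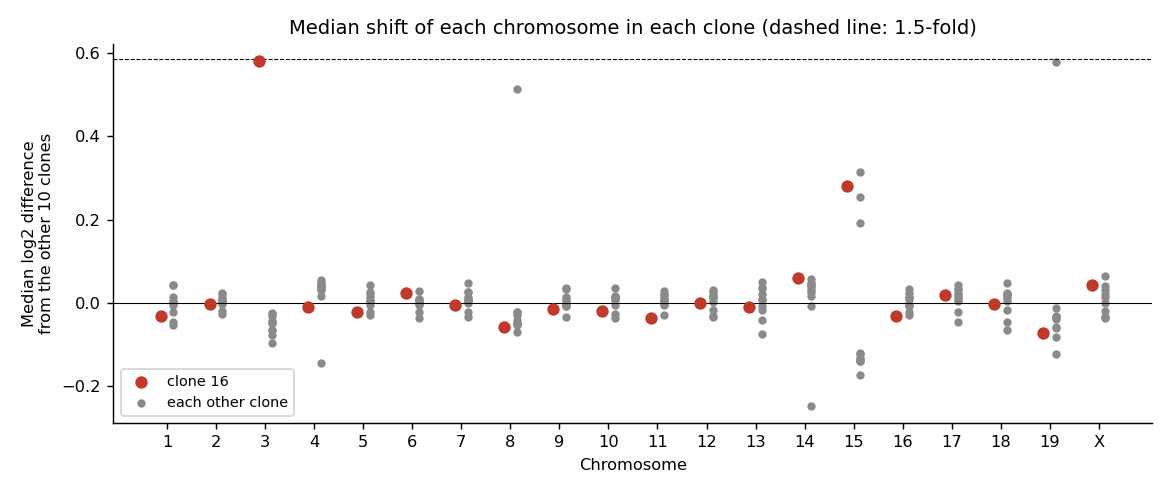
Median log2 difference of each chromosome's genes (y axis) by chromosome (x axis), for clone 16 (red) and for each other clone (grey), each against the mean of the remaining 10 clones. The red point of chromosome 3 lies at 0.58, where the grey points run between -0.10 and -0.02. Genes have a mean of at least 5 CPM, and the dashed line marks 1.5-fold.

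The shift ran along the whole chromosome. Cut into 10 stretches by gene order, chromosome 3 gave medians of 0.48 for the first, which runs between the peroxisome gene Pex2 and Mrpl47, and 0.59 for the last, between Adh5 and Wls, with all 10 at 0.48 to 0.63. Over the 439 windows of 25 neighbouring genes the median was 0.42 to 0.75. No window came near the level of the comparison genes.

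A gene was said to follow the shift where its fold lay between the square root of 1.5 (1.22) and 1.84, which is 1.5 times that, and to go beyond it above 1.84. It was near 1 between 0.816 and 1.22, and lower at 0.816 or less. By these bands 331 chromosome 3 genes (71.5%) followed, 60 (12.96%) went beyond, 59 (12.7%) were near 1 and 13 (2.81%) were lower. Over all 10355 genes the shares were 15% in the band that follows, 2.08% beyond, 67.7% near 1 and 15.2% lower. Clone 16 lay above all 10 other clones at 357 chromosome 3 genes (77.1%, against 13.5% of all genes). It lay below all 10 at 3 of them, Tnik, Slc27a3 and Hps3 (12.4% of all genes). These shares restate the shift that picked the chromosome.

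The edges divide close neighbours. At the lower edge Eif5a2 and Frem2 (both -0.34) lay inside the lower band and Ppm1j (-0.28) and Rfx5 (-0.25) outside it. At the edge of the band that follows, Pdgfc and Rpl22l1 were just under it, and Zfp687 and Tuft1 just over it, all at 0.29. At the upper edge Gon4l and Extl2 (both 0.87) followed, and Ap4b1 (0.88) and Wwtr1 (0.89) went beyond.

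About their own median the chromosome 3 genes scattered about as much as other genes did about theirs. The interquartile range of the difference was 0.34 on chromosome 3 and 0.34 over the comparison genes. On chromosome 3, 72 genes (the 2 lower bands together) lay as far under the median as the near-1 edge or farther, 15.6% of 463 (82.9% of all genes lie in these bands), and among the comparison genes 15.7% lay as far under their own median. Genes beyond the shift made up 12.96% on chromosome 3, and 12.3% of the comparison genes lay as far above theirs. The share of chromosome 3 genes off 1.5-fold was thus near the share of genes elsewhere off their own level. Low genes scattered most. Of 4 groups by level, the lowest (5.08 to 19.7 CPM) had 40 of 116 genes near 1 or lower and an interquartile range of 0.62, and the highest (107 to 874 CPM) had 8 of 116 and 0.24. The comparison genes in those ranges of level had interquartile ranges of 0.52 and 0.27.

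**Figure D2:**
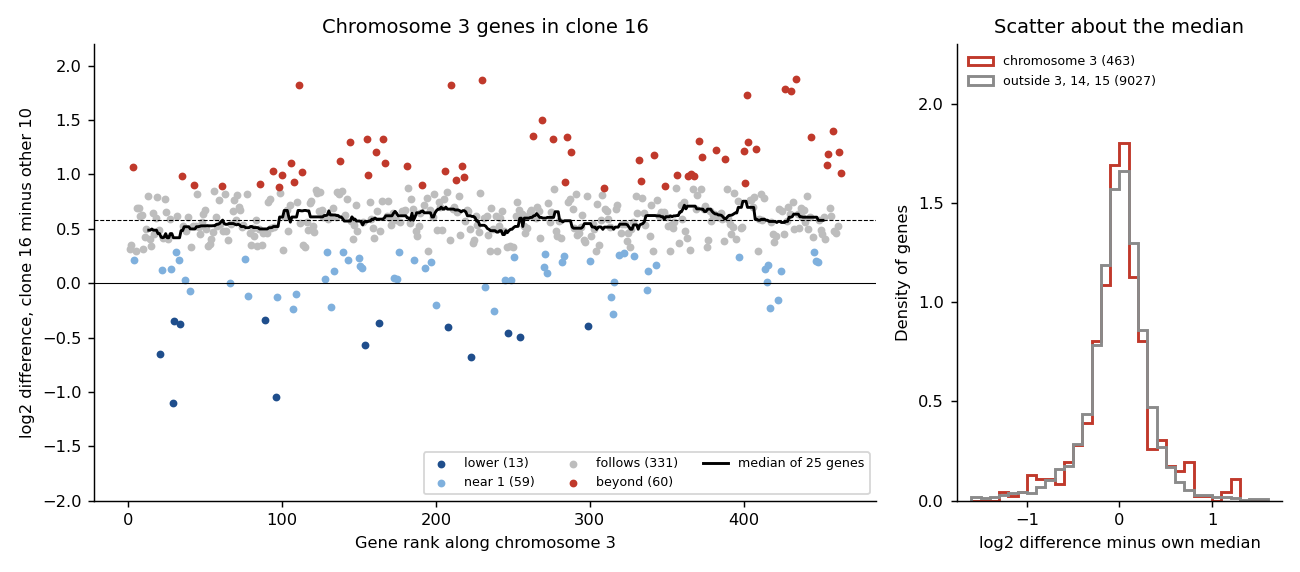
Left, log2 difference of each of the 463 chromosome 3 genes (y axis) by gene rank along the chromosome (x axis), coloured by band, with the running median of 25 genes as a line and 1.5-fold dashed. Right, density of the difference minus its own median for chromosome 3 (red) and the 9027 comparison genes (grey). The line stays between 0.42 and 0.75, escapes and excesses occur along the whole length, and both outlines have nearly the same width.

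Genes of the bands also differed in their spread among the other 10 clones. The mean of these same 10 clones sets the band, so the spread is not independent of it. The median SD of log2 level over the other 10 was 0.32 for genes near 1 or lower, 0.35 for genes beyond and 0.16 for genes that followed. The median levels were 18.3, 28.7 and 57.9 CPM. Genes that departed from the shift had lower levels and varied more among the other clones, and level and spread go together in counts.

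Transcription factors and enzymes with the most chromosome 3 messenger RNA mostly followed. Sox2, a core pluripotency factor, stood at 1057 CPM in clone 16, against a lowest, median and highest of 718, 826 and 884 CPM in the other 10, a difference of 0.36. Clone 16 was above all 10, at a smaller fold than the chromosome's median. Jade1, a subunit of the HBO1 histone acetyltransferase complex, stood at 1197 CPM in clone 16, against a lowest, median and highest of 582, 726 and 936 CPM in the other 10 (difference 0.68). The actin-binding calponin Cnn3 stood at 1033 CPM in clone 16, against a lowest, median and highest of 470.0, 589 and 691 CPM in the other 10 (0.81). Both lay well clear of the other clones. Hdgf, a growth factor of the nucleus, had a difference of 0.51, and the seryl-tRNA synthetase Sars of 0.77. Each was above all 10. Of the 10 most abundant by mean level over all 11 clones, only Txnip, the inhibitor of thioredoxin, did not follow. It stood at 1016 CPM in clone 16, against a lowest, median and highest of 518, 875 and 1114 CPM in the other 10, a difference of 0.27 that lay inside the range of the others and just within the near-1 band. Its lowest value, in clone 19, stood far from the rest, and without that clone the difference was 0.19.

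Of the 4 genes taken as marks of the clone, 2 lie on chromosome 3. Setdb1, the H3K9 methyltransferase that silences endogenous retroviruses with Trim28 in embryonic stem cells, stood at 355 CPM in clone 16, against a lowest, median and highest of 188, 210.0 and 249 CPM in the other 10. Its difference of 0.75 lay inside the band that follows. Ccna2, the cyclin of S phase and mitotic entry, stood at 341 CPM in clone 16, against a lowest, median and highest of 158, 187 and 201 CPM in the other 10. Its difference of 0.90 lay just beyond the band. The other clones were all well under the clone 16 level of either gene. Sox21 and Mycl lie on chromosomes 14 and 4 and are described with the genes elsewhere.

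Lists of protein complexes and functions, chosen for having members on chromosome 3 or for their known link to chromosome gains, held 54 of the 463 genes. Of these 42 followed, 5 went beyond, 7 were near 1 and 0 were lower, and clone 16 was above all 10 at 45. Their median difference was 0.51. The 508 listed genes outside chromosomes 3, 14 and 15 had a median of -0.05, and 441 of them were near 1 (36 lower, 26 at the level of the band that follows, 5 beyond). Over all 463 chromosome 3 genes 71.5% followed, and clone 16 was above all 10 at 77.1%. The higher level of listed chromosome 3 genes beside their partners elsewhere thus restates the shift of the whole chromosome. Lef1, Rps27 and Fgf2, also on chromosome 3, had too few counts, with Lef1 at 4.70 CPM in clone 16 and 4.38 ± 1.97 in the other 10, Rps27 at 1.32 and 1.13 ± 0.375, and Fgf2 at 0 in clone 16 and 0.0519 ± 0.0493.

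The proteasome, which degrades ubiquitin-tagged proteins, has 3 subunit genes on chromosome 3 and all 3 followed. Psma5, of the outer ring of the core particle, stood at 42.8 CPM in clone 16 and 25.9 ± 3.12 in the other 10 (SD, n = 10, as in all such pairs), Psmb4, of its inner ring, at 256 CPM in clone 16 and 182 ± 13 in the other 10, and Psmd4, a ubiquitin receptor of the regulatory particle, at 241 CPM in clone 16 and 168 ± 14.6 in the other 10. Their differences were 0.72, 0.50 and 0.52, and each lay above all 10. All 26 proteasome genes on the comparison chromosomes were near 1, with a median of -0.07. Cct3, 1 of the 8 subunits of the cytosolic chaperonin that folds actin and tubulin, stood at 716 CPM in clone 16 and 473 ± 91.6 in the other 10 (0.62). The 6 partners on comparison chromosomes were all near 1, between -0.28 and -0.16. Of these partners, only Cct7 lay below all 10 (13.3% of the comparison genes did), and the other 5 lay inside the range of the other clones.

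RNA-processing complexes showed the same split. Both chromosome 3 genes of the RNA exosome, the 3′ to 5′ degradation complex, followed, Exosc8 at 0.77 and Exosc9 at 0.55, and the 6 partners elsewhere had a median of -0.06. The splicing genes Sf3b4 (0.42) and Prpf3 (0.66) followed, with the 13 partners of SF3 and U4/U6 at a median of -0.02. Rbm8a of the exon junction complex had 0.56, and its 3 partners a median of 0.02. Ilf2, an RNA-binding protein, followed at 0.62. Of Integrator, which cleaves nascent small nuclear RNA, Ints3 (0.37) and Ints12 (0.51) followed at the low side, and the 10 partners had a median of 0.08. Polr3c of RNA polymerase III followed at 0.48, but Polr3gl, the paralog of Polr3g, was near 1 at 7.25 CPM in clone 16 and 3.44 to 14.3 in the other 10.

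The 5 lists of chromatin complexes each held 1 chromosome 3 gene, and all 5 genes followed. Actl6a, shared by BAF and Tip60, was listed under BAF only. Beside Setdb1, Gatad2b of the NuRD deacetylase had a difference of 0.50, the actin-like BAF and Tip60 subunit Actl6a 0.52, the H2A.Z chaperone Vps72 0.66, and Tbl1xr1 of the NCoR-SMRT co-repressor 0.78. Clone 16 was above all 10 at each of them. The medians of their partners elsewhere were 0.04 for H3K9 methylation and HUSH, -0.03 for NuRD, -0.00 for BAF, 0.01 for SRCAP and Tip60 and -0.06 for NCoR-SMRT. Smarcd3, an alternative BAF subunit, was the only partner at least 2-fold away, at 1.79 CPM in clone 16 and 2.14 to 14.6 in the other 10. Trim28, which brings Setdb1 to its targets, stood at 1855 CPM in clone 16 and 1788 ± 137 in the other 10, inside the other 10.

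**Figure D3:**
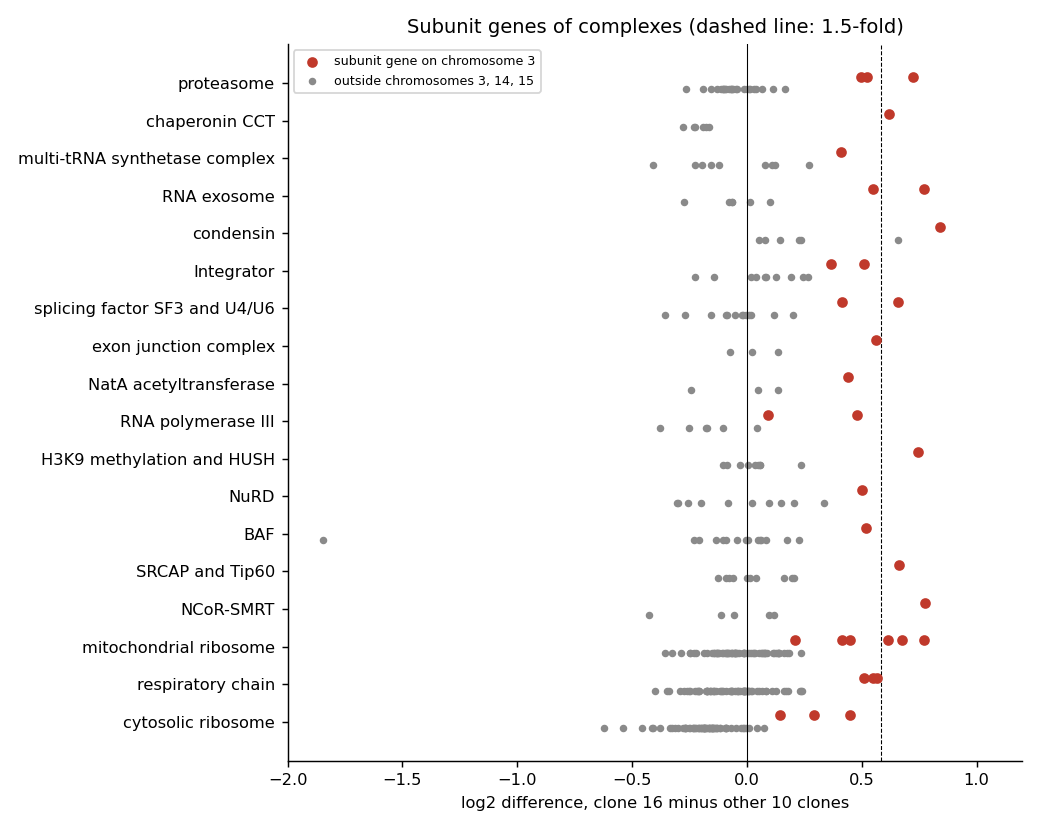
Log2 difference (x axis) of subunit genes of 18 complexes (rows), with subunits encoded on chromosome 3 in red and those outside chromosomes 3, 14 and 15 in grey. Red points mostly sit near the dashed 1.5-fold line and grey points near 0, with the lone grey point at the left being Smarcd3.

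Genes of mitosis stood at the upper side. Cenpe, the kinetochore motor, stood at 351 CPM in clone 16, against a lowest, median and highest of 121, 197 and 210.1 CPM in the other 10 (0.93). Plk4, which starts centriole duplication, had a difference of 0.76, and Ect2, the exchange factor that sets up cytokinesis, of 0.66. Smc4, the core ATPase of condensin, stood at 673 CPM in clone 16 and 377 ± 34.2 in the other 10 (0.84). The mitotic genes elsewhere also lay somewhat above 0, with a median of 0.16 over 13 and clone 16 above all 10 at 6 of them (9.79% of the comparison genes), among them Bub1b (0.44), Ttk (0.27) and Cdk1 (0.24). Ccne1, the G1 to S cyclin, was the exception at 25.8 CPM in clone 16 and 39 to 78.8 in the other 10. Of condensin, Ncapd2 on chromosome 6 stood at a difference of 0.66, and Smc2, the partner of Smc4, at 0.05.

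Cytosolic ribosomal genes stood under the chromosome's median. The 3 measured cytosolic ribosomal genes of chromosome 3 were Rpl34 (0.45), Rpl22l1 (0.29) and Rps3a1 (0.14), of which Rpl34 was above all 10. These families have many near-identical copies, so their counts are uncertain, and levels of 13.4 to 78.8 CPM in clone 16 are low for them. The 67 ribosomal genes elsewhere had a median of -0.18, and at 32 of them clone 16 was below all 10 (13.3% of the comparison genes). Relative to those partners the 3 genes were thus also higher. Of 6 mitochondrial ribosomal genes 5 followed, Mrpl9 (0.61), Mrpl24 (0.42), Mrpl47 (0.45), Mrps21 (0.67) and Dap3 (0.77), and Mrps28 was near 1 (0.21). Their 64 partners had a median of -0.05.

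Respiratory-chain subunits Ndufb5 (0.57) and Ndufc1 (0.51) of complex I and Atp5f1 (0.55) of ATP synthase followed, and 63 of 66 partners were near 1. In translation, the cap-binding factor Eif4e (0.38) and Eif2a (0.48) followed, as did Aimp1 (0.41), a scaffold of the multi-tRNA synthetase complex, and Naa15 (0.44), the ribosome anchor of the NatA acetyltransferase. All were above all 10. Mcl1, an anti-apoptotic protein that embryonic stem cells depend on, stood at 679 CPM in clone 16 and 492 ± 33.3 in the other 10 (0.47), and Bcl10 at a difference of 0.51.

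Among the listed signalling genes of chromosome 3, 1 of 3 in the ERK pathway and 1 of 2 beta-catenin co-activators followed. These are too few to describe signalling genes as a class. Nras stood at 325 CPM in clone 16 and 232 ± 28.1 in the other 10 (0.50), while its relative Hras, on another chromosome, had a difference of -0.06. Rap1a, a small GTPase, was just under the band at 0.28 but still above all 10. Spry1, a feedback inhibitor of receptor tyrosine kinases, was near 1 at 17.7 CPM in clone 16 and 8.28 to 24.4 in the other 10. Of the beta-catenin co-activators Pygo2 followed (0.49) and Bcl9 was near 1 (0.19). Zmat3 and Ddit4l, counted among p53 targets, had differences of 0.33 and 0.59 and lay inside the wide range of the other 10, as did most targets elsewhere.

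Genes were called clear escapes where they were near 1 or lower and also more than 2 SD of the other 10 under the chromosome's median. There were 22 (4.75% of 463), and 6.14% of the comparison genes met the same rule about their own median. Without clones 17 and 19, the 2 clones in which the most genes stood apart, there were 41. The most abundant was Sh3d19, an SH3-domain adaptor, at 212 CPM in clone 16, against a lowest, median and highest of 143, 193 and 233 CPM in the other 10. Noct, the clock-controlled phosphatase of NADP(H), stood at 170.3 CPM in clone 16, against a lowest, median and highest of 157, 185 and 227 CPM in the other 10. Both were at the middle of the other clones, not above them. The deubiquitinase Usp33 stood at 133 CPM in clone 16 and 101 to 138 in the other 10, and the RNA-binding protein Mex3a at 97.5 CPM in clone 16 and 79.1 to 114 in the other 10. Skil, a repressor of SMAD signalling, stood at 86.6 CPM in clone 16, against a lowest, median and highest of 79.4, 87.5 and 118 CPM in the other 10, and the lactate and pyruvate carrier Slc16a1 at 78.4 CPM in clone 16, against a lowest, median and highest of 65.7, 88.4 and 114 CPM in the other 10. None of these 6 was outside the other clones. The tRNA methyltransferase Trmt10a (difference 0.17) and Gstcd (0.24) were also among them, and Gstcd was above all 10 at the low fold of 1.18.

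The lowest chromosome 3 gene was Tnik, a kinase of Wnt and JNK signalling, at 13.5 CPM in clone 16, against a lowest, median and highest of 15.9, 30.2 and 46.3 CPM in the other 10, a difference of -1.1. It was under all 10, though clones 19 (15.9 CPM) and 26 (16.7 CPM) were close. Slc27a3, of the fatty acid transport family, stood at 11.6 CPM in clone 16 and 12.8 to 23.2 in the other 10, and Hps3, of lysosome-related organelle biogenesis, at 8.75 CPM in clone 16 and 9.86 to 20.2 in the other 10. The neuronal kinase Dclk2 stood at 52.4 CPM in clone 16, against a lowest, median and highest of 52.4, 77.9 and 117 CPM in the other 10, level with the lowest other clone. Germ-cell genes were also among the 10 lowest. Sohlh2, a germ-cell transcription factor, stood at 17 CPM in clone 16, against a lowest, median and highest of 10, 37.1 and 80.2 CPM in the other 10, and Hormad1, of meiotic chromosome axes, at 12.1 CPM in clone 16 and 8.45 to 29.7 in the other 10. Both varied widely among the other clones and clone 16 lay inside their range. The remaining 4 were Mllt11 (-0.46), 4632404H12Rik (-0.40), Tspan2 (-0.39) and Lrriq4 (-0.38), all of at most 7.34 CPM in clone 16 and inside the range of the others.

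Clear excesses, beyond the band and more than 2 SD above the chromosome's median, numbered 18 (3.89% of 463), against 3.91% of the comparison genes about their own median. Without clone 19 there were 30, and without clones 17 and 19 there were 37. The most abundant was Tet2, a dioxygenase that oxidises 5-methylcytosine and is a major such enzyme of embryonic stem cells. It stood at 1000.2 CPM in clone 16, against a lowest, median and highest of 309, 423 and 552 CPM in the other 10, a difference of 1.22. All 10 other clones were clearly under the clone 16 level. Of the other methylation genes Tet1 stood at 975 CPM in clone 16 and 1069 ± 167 in the other 10 and was inside the other 10. Tet3 (29.8 CPM in clone 16 and 7.16 to 25.8 in the other 10) and Dnmt3l (635 CPM in clone 16 and 154 to 559 in the other 10) were above all 10, and Dnmt3a (73.5 CPM in clone 16 and 82.6 to 138 in the other 10), Uhrf1 (531 CPM in clone 16 and 566 to 900.0 in the other 10) and Tdg (21.4 CPM in clone 16 and 23 to 40.2 in the other 10) were below all 10. Dnmt1 and Dnmt3b were inside.

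Cth, which makes cysteine out of cystathionine, stood at 941 CPM in clone 16, against a lowest, median and highest of 209, 382 and 508 CPM in the other 10 (1.4). Phgdh, the first enzyme of serine synthesis, stood at 186 CPM in clone 16, against a lowest, median and highest of 37.6, 87.3 and 122 CPM in the other 10 (1.2), and among its pathway partners on other chromosomes Psph (0.67) and Mthfd2 (0.49) were above all 10 while Psat1 (0.18) and Shmt2 (0.24) were not. These genes are known targets of Atf4, the transcription factor of the amino acid response. Atf4 itself, on chromosome 15, stood at 985 CPM in clone 16 and 304 to 876 in the other 10. It lies in the run of chromosome 15 genes described below, at which clones 16 to 19 were all higher. Of other genes that respond to stress, Herpud1 (0.98), Sesn2 (0.81), Trib3 (0.73), Ddit3 (0.56) and Asns (0.40) were above all 10, and Hsph1, Hspd1 and Hspe1 were below all 10. The chaperones Hspa5 (-0.04), Hspa8 (-0.12) and Hsp90ab1 (-0.10) were inside. The 17 measured genes of the proteotoxic stress list outside chromosomes 3, 14 and 15 had a median of 0.06. Clone 16 was above all 10 at 5 of them (9.79% of the comparison genes) and below all 10 at 3 (13.3%). A shared response of these genes was not tested.

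Other clear excesses were the membrane peptidase Mme at 334 CPM in clone 16 and 124 to 203 in the other 10, the centrosome scaffold Pde4dip at 224 CPM in clone 16 and 58.2 to 125 in the other 10, the ETS repressor Etv3 at 90.7 CPM in clone 16 and 32.7 to 53.6 in the other 10, the NF-kappaB subunit Nfkb1 at 75.7 CPM in clone 16 and 19.7 to 45.8 in the other 10 and Jtb at 52.1 CPM in clone 16 and 24.5 to 29.4 in the other 10. Jtb varied little among the other 10, by an SD of 0.08 on the log2 scale, and stood 1.96-fold higher in clone 16. In the mevalonate pathway Pmvk was beyond (42.3 CPM in clone 16 and 16.9 to 27.3 in the other 10, difference 1.04) and Fdps, of which near-identical copies exist, followed (0.48) inside the range of the others. Their 13 partners elsewhere had a median of -0.01.

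Of the 10 chromosome 3 genes with the highest difference, Cth, given above, was abundant, and the other 9 stood at 15.4 to 115 CPM in clone 16. Ccn1, a secreted matrix protein and YAP target, stood at 31 CPM in clone 16, against a lowest, median and highest of 3.86, 7.47 and 21.9 CPM in the other 10 (1.88). The LIM-domain protein Lmo4 stood at 48 CPM in clone 16 and 7.35 to 27 in the other 10, the adaptor She at 115 CPM in clone 16 and 13.2 to 63.9 in the other 10, the exchange factor Arhgef26 at 74.5 CPM in clone 16 and 13.9 to 33.1 in the other 10, the dehydrogenase Bdh2 at 71 CPM in clone 16 and 7.7 to 40.2 in the other 10, the clock repressor Ciart at 104 CPM in clone 16 and 22.9 to 66.2 in the other 10, the synaptic vesicle protein Sv2a at 15.4 CPM in clone 16 and 2.95 to 10.3 in the other 10, and Clca3b, which has close paralogs, at 32.7 CPM in clone 16 and 5.55 to 20.6 in the other 10. All of these were above all 10. S100a13, at 30.7 CPM in clone 16, against a lowest, median and highest of 2.76, 6.42 and 63.1 CPM in the other 10, was inside the range because of a single high clone.

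**Figure D4:**
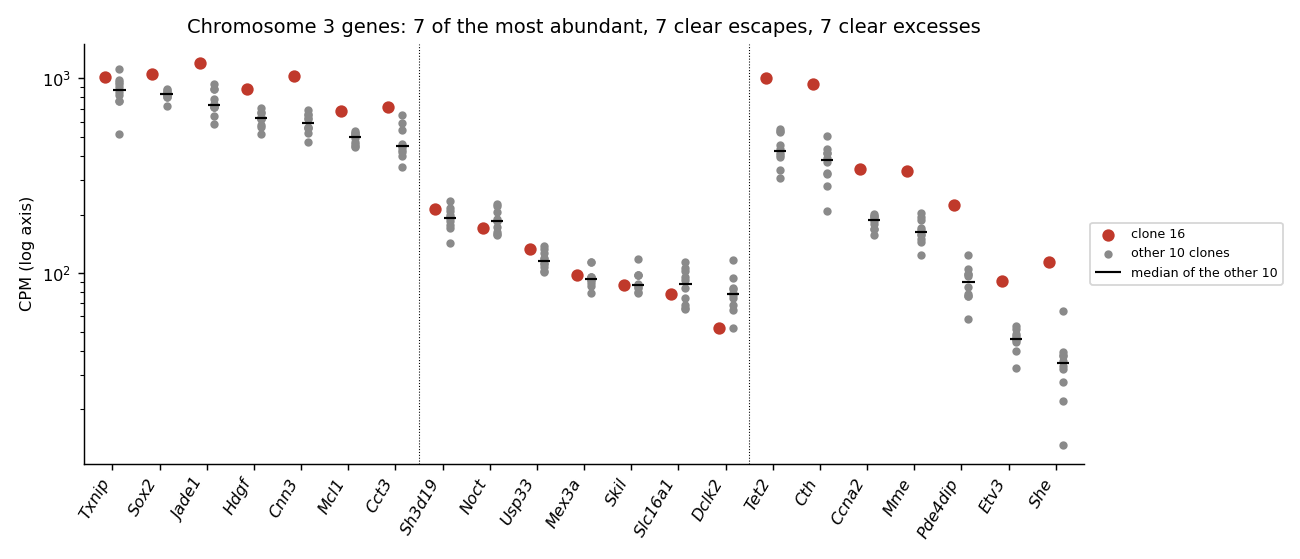
Level of 21 chromosome 3 genes in CPM (y axis, log scale) by gene (x axis), with clone 16 in red, each of the other 10 clones in grey and their median as a bar. The groups are 7 of the most abundant genes, 7 clear escapes and 7 clear excesses. Red points lie inside the grey ones for the 7 escapes and for Txnip, and above all of them for the other genes.

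Promoters are printed for 1 gene that followed (Setdb1), 1 that escaped (Noct) and 1 beyond the shift (Tet2), to set the sequence at the start of a gene from each band side by side. Each covers 250 bases before and 50 after the annotated start (RefSeq, GRCm38.p6), 5′ to 3′ on the gene's strand, with the GC box GGGCGG or its other-strand form CCGCCC in capitals. The positions are chr3:95357153-95357452 on the minus strand, chr3:51224197-51224496 on the plus strand and chr3:133544341-133544640 on the minus strand.
Setdb1: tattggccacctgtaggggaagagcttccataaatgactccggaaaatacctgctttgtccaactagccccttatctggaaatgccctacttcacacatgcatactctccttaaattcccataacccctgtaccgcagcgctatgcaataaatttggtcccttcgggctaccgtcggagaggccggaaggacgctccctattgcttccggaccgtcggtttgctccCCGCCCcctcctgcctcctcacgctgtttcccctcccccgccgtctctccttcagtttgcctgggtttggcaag
Noct: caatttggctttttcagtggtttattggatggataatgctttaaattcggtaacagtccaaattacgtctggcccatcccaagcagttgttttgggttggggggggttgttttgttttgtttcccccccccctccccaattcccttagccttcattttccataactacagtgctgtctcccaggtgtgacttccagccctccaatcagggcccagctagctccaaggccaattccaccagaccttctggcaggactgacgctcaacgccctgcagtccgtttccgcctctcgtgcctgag
Tet2: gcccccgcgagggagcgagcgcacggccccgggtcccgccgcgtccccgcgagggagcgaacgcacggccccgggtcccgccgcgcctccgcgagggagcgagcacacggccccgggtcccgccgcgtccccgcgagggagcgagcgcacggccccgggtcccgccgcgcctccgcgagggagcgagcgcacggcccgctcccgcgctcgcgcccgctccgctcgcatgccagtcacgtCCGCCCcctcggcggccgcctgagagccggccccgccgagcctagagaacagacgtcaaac
They held 15, 7 and 57 CpG pairs and 1, 0 and 1 GC boxes in the order printed. A match is a description of letters and no site of binding. Of all 27025 promoters held in that source, 35.9% had a GC box on either strand, and of the 376 chromosome 3 members with a promoter there, all of them expressed at 5 CPM or more, 65.7% did; the larger set was not limited by expression. The 3 printed promoters do not stand for their bands. Among genes with a promoter there, the median was 22 CpG pairs for genes that followed, 24 for clear escapes and 18 for genes beyond. Only 79.8% of the genes that followed had a promoter there, so no further comparison of promoter makeup between the bands is given.

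Outside chromosomes 3, 14 and 15, genes were said to stand apart where clone 16 was at least 2-fold from the mean of the other 10 and outside their range. There were 45 higher (0.499% of 9027) and 167 lower (1.85%). The same count for each other clone was 8 to 162 higher (median 43) and 2 to 256 lower (median 31.5), so the number of lower genes in clone 16 was exceeded by 1 clone, clone 19, and nearly matched by clone 17 (160). Without clone 19 the higher genes numbered 70, and without clones 17 and 19, 79. The same rule over all 10355 genes gave 1.01% higher and 1.84% lower, of which 40 higher and 1 lower lie on chromosome 3.

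Mycl, the third member of the Myc family of growth regulators, lies on chromosome 4 and stood at 115 CPM in clone 16, against a lowest, median and highest of 19.6, 28.2 and 38 CPM in the other 10, a difference of 2.04. Clone 16 was 3 times as high as the highest other clone. Of the rest of the Myc, Max and Mxd network on comparison chromosomes 9 genes were near 1, among them Mycn at 94.7 CPM in clone 16 and 93.3 ± 27.3 in the other 10 and Max at 75.2 CPM in clone 16 and 80.2 ± 13.9 in the other 10. The largest difference was that of Eml1, a microtubule-binding protein of the spindle, at 56.3 CPM in clone 16, against a lowest, median and highest of 1.58, 4.63 and 14.3 CPM in the other 10 (3.49). The oxysterol-binding relative Osbpl3 stood at 52.3 CPM in clone 16, against a lowest, median and highest of 3.59, 8.4 and 19.7 CPM in the other 10 (2.63). Neither gene was near these levels in any other clone.

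The other 9 of the 12 highest have varied roles. The gap-junction protein Gja1, abundant in embryonic stem cells, stood at 165 CPM in clone 16, against a lowest, median and highest of 16.9, 45.7 and 65.6 CPM in the other 10 (1.93), and the TALE homeobox factor Meis2 at 153 CPM in clone 16, against a lowest, median and highest of 19.5, 49.96 and 107 CPM in the other 10 (1.58). The neurotrophin receptor Ntrk2 stood at 31.6 CPM in clone 16 and 2.21 to 28.2 in the other 10, with clone 21 nearly as high, and the Notch ligand Dner at 25.1 CPM in clone 16 and 2.14 to 16.2 in the other 10. The basement-membrane collagen Col4a2 stood at 34.1 CPM in clone 16 and 3.72 to 19.9 in the other 10, the podosome scaffold Sh3pxd2b at 39.1 CPM in clone 16 and 3.33 to 21.2 in the other 10 and the cytosolic regulator Arhgdib at 32.2 CPM in clone 16 and 3.59 to 20.8 in the other 10. Nsg2 (14.4 CPM in clone 16 and 1.58 to 9.39 in the other 10) and the pseudokinase Prag1 (26.2 CPM in clone 16 and 3.91 to 22.9 in the other 10) complete the 12. Gja1, Meis2 and Mycl passed 100 CPM in clone 16, and the others did not.

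The lowest genes outside these chromosomes were both Lefty genes of chromosome 1, secreted inhibitors and targets of Nodal signalling. Lefty2 stood at 11.8 CPM in clone 16, against a lowest, median and highest of 36.5, 82.2 and 489.5 CPM in the other 10, a difference of -3.13. Lefty1 stood at 3.39 CPM in clone 16, against a lowest, median and highest of 9.21, 27.7 and 126 CPM in the other 10 (-2.93). Both varied more than 10-fold among the other clones, and clone 16 was under the lowest of them. Bahcc1, a reader of H3K27me3, stood at 7.34 CPM in clone 16, against a lowest, median and highest of 14.8, 68.1 and 82.6 CPM in the other 10 (-2.81), and here 1 other clone (clone 19, 14.8 CPM) was also low. Khdc3, of the maternal subcortical complex, stood at 2.35 CPM in clone 16 and 6.22 to 94.3 in the other 10, and Ap3b2, a neuronal vesicle adaptor, at 4.42 CPM in clone 16 and 14.5 to 113 in the other 10. The metal transporter Slc11a1 stood at 1.41 CPM in clone 16 and 3.82 to 51.4 in the other 10, and Slfn9, which has close paralogs, at 2.45 CPM in clone 16 and 4.64 to 44.9 in the other 10. Ggt1 (0.47 CPM), Pkd2l1 (1.41), Tmem28 (0.47), Rasgrp2 (1.04) and Crmp1 (0.941) were near the detection level in clone 16 and reached 1.95, 1.83, 0.952, 1.68 and 1.67 CPM in the lowest of the other 10.

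**Figure D5:**
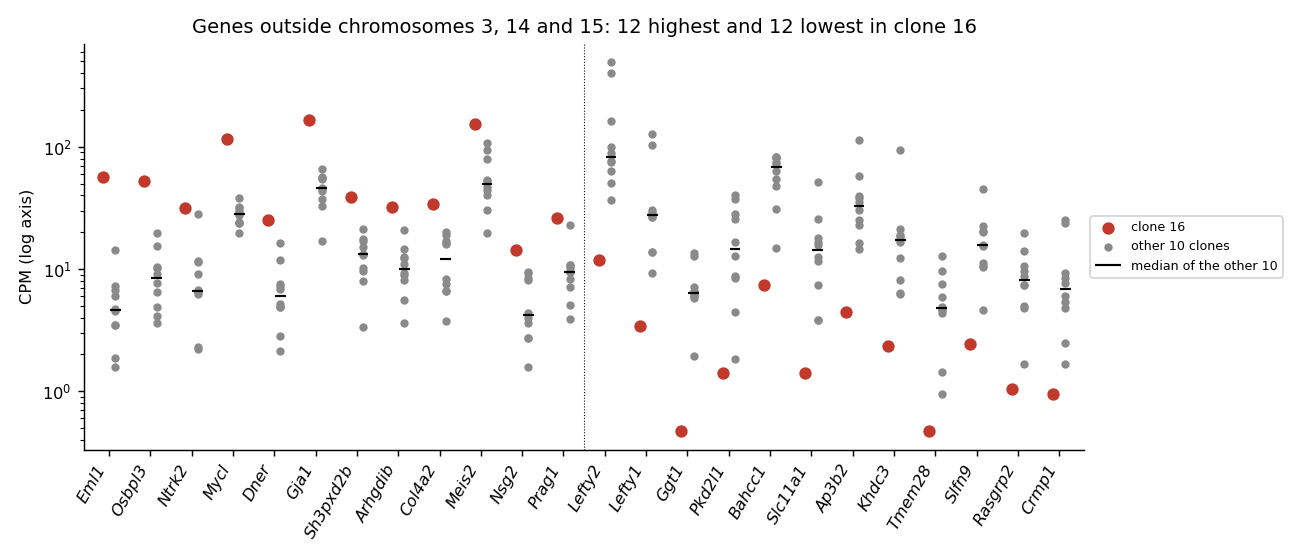
Level of the 12 highest and 12 lowest genes outside chromosomes 3, 14 and 15 in CPM (y axis, log scale) by gene (x axis), with clone 16 in red, each of the other 10 clones in grey and their median as a bar. Red points lie above all grey points on the left and under all of them on the right, with narrow gaps for Ntrk2 and Prag1 and wide ones for Eml1, Osbpl3 and Mycl.

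Sox21, a SoxB repressor related to Sox2 and known to be induced by it, lies on chromosome 14 and stood at 132 CPM in clone 16, against a lowest, median and highest of 14.2, 21.2 and 30.2 CPM in the other 10, a difference of 2.56. No other clone came near the clone 16 level. The 19 measured genes after Sox21 to the end of the chromosome, between Abcc4 and Tmtc4, were all lower in clone 16, by a median of -1.04 (-1.77 to -0.28). Dzip1, Dnajc3, Mbnl2, Timm8a2 and Tm9sf2 among them lay inside the range of the other 10, and the rest below it. Their SD of log2 level over the other 10 ran between 0.28 (Clybl) and 0.72 (Dzip1). The medians of this run in each other clone are not given, so whether others share it is not shown. They include Zic2, a zinc-finger factor of early neural development, at 15.3 CPM in clone 16 and 29.8 to 93.4 in the other 10, and Farp1 at 14 CPM in clone 16 and 28.5 to 66.5 in the other 10. The 10 genes before Sox21 had a median of -0.18, with 4 of them positive. Sox21 thus stood high beside a run of neighbours that stood low. The other SoxB genes Sox3 and Sox14 were at 0.188 and 0 CPM in clone 16.

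Other runs on chromosomes 14 and 15 were higher in clone 16 and in some other clones. The 33 genes between Itm2b and Klf5 on chromosome 14 had a median of 0.74 in clone 16, 0.74 in clone 17 and 0.71 in clone 19, and -1.05 to -0.13 in the other 8 clones. The 281 genes between Grina and Itga5 on chromosome 15 had 0.39 in clone 16 and 0.34 to 0.42 in clones 17, 18 and 19, against -0.24 to -0.17 in the other 7. Among the highest genes named next, Dgkh lies in the chromosome 14 run, and Rnd1, Adm2 and Cdc42ep1 lie in the chromosome 15 run. The differences of these genes are thus not separated from those of their runs, which other clones share. Over both chromosomes, next to Sox21, the diacylglycerol kinase Dgkh (121 CPM in clone 16 and 19.9 to 62.4 in the other 10) and the receptor Lpar6 (27.9 CPM in clone 16 and 3.01 to 21.7 in the other 10) on chromosome 14, and the GTPase Rnd1 (15.9 CPM in clone 16 and 2.2 to 7.7 in the other 10), the peptide hormone Adm2 (29.5 CPM in clone 16 and 4.12 to 22.3 in the other 10) and Cdc42ep1 (29.8 CPM in clone 16 and 4.71 to 16.9 in the other 10) on chromosome 15, were the highest. Nefm, a neurofilament gene (3.11 CPM in clone 16 and 4.73 to 71.5 in the other 10), with Zic2 and Farp1 on chromosome 14, and the meiotic cohesin Smc1b (5.27 CPM in clone 16 and 12.2 to 63.3 in the other 10), the growth factor Pdgfb (2.16 CPM in clone 16 and 3.19 to 11.9 in the other 10) and the catenin Ctnnd2 (3.11 CPM in clone 16 and 7.34 to 16.1 in the other 10) on chromosome 15, were the lowest.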

How the data were processed

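The authors' deposited table gives raw counts of reads per gene, whole numbers for 22369 mouse gene IDs in 11 libraries, 1 per clone. TopHat 1.4.0, Bowtie 0.12.7 and the builds mm9 and hg19 are named, per the submitters' processing notes. Per the labels' protocols, RNeasy served for total RNA and TruSeq RNA for the libraries. The counter, its strand setting and its rule for reads that match several places were not given in the sources used here.

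CPM were computed on TMM library sizes (edgeR 4.0.16, R 4.3.3, genes of at least 1 mean CPM), and differences, bands and counts in Python 3.11.15 with NumPy 2.4.6, pandas 2.3.3 and matplotlib 3.10.9. DESeq2 1.42.0 gave 1 alternative scaling. GENCODE vM21 (GRCm38, later than the files' mm9) served only for chromosome names and the order of genes. The 1592 IDs without a match there held 0.401% of counts, and 80 of them had a mean of at least 5 CPM. The bands were run on simulated counts with the same dispersion for every gene. Escapes and genes standing apart were planted only in genes well above 5 CPM. That run does not show how the bands behave for low genes, which scattered most. No p-values are given. The members and lists were chosen with earlier results of these data known. Of 678 listed symbols 672 were in the table.

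Named are the 4 genes of the rule, the 10 lowest, highest and most abundant chromosome 3 genes, up to 10 clear escapes and excesses, the genes beside each band edge, listed chromosome 3 genes and their partners, the 12 highest and lowest genes elsewhere, and the 3 highest and lowest of chromosomes 14 and 15. A few genes that the rule names are not reported here. Alternatives were another scaling, pseudocount, filter, the median in place of the mean, and left-out clones. Those without clones 17 and 19 and with counts thinned to the smallest library were added after seeing the data.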

Additional observations from a re-analysis of the deposited data

Results flagged for a closer look

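Over the other 10 clones, the named genes and the chromosome 3 median difference, 140 items in all, were checked for a single clone far from the rest. This check picks about 1 in 20 groups by chance, and 11 items, all of them genes, had one. Clone 19 stood low at Txnip (518 CPM), Gatad2b (50.7), Tbl1xr1 (121), Spry1 (8.28) and Gja1 (16.9). Clone 17 stood low at Sox2 (718 CPM) and high at Khdc3 (94.3). Clone 24 stood high at Plk4 (87.5), and clone 25 low at Psmb4 (154), Cenpe (121) and Ggt1 (1.95). Of these, Txnip and Cenpe left their bands when a clone was left out, and the others did not.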

How the results depend on the processing

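The chromosome 3 median was 0.57 to 0.60 under the scalings by DESeq2 and by TMM outside chromosomes 3, 14 and 15, under the pseudocounts, the median in place of the mean, left-out clones and thinned counts. It was 0.55 on total counts alone, where the comparison genes also moved (to -0.05), and 0.42 with no filter on level (0.56 and 0.59 with filters of 1 and 10 CPM). The difference of the chromosome 3 median from the comparison genes was 0.59 to 0.60 under the 3 alternative scalings. With no filter the lower, near-1 and beyond genes numbered 47, 308 and 94, clear escapes and excesses 189 and 50, and genes standing apart elsewhere 108 higher and 330 lower. At 1 CPM or more there were 26 lower and 95 near-1 genes, 38 clear escapes, and 83 higher and 302 lower genes elsewhere, and at 10 CPM or more 109 lower genes elsewhere. These filters change how many genes enter. Leaving out each clone in turn gave a median of 0.57 to 0.58, 13 to 15 lower, 58 to 64 near-1 and 57 to 65 beyond genes, 22 to 32 clear escapes, 14 to 30 clear excesses, and 44 to 70 higher and 160 to 189 lower genes elsewhere. Without clones 17 and 19 there were 41 clear escapes, 37 clear excesses and 79 higher genes elsewhere. The interferon list had a median of 0.36 over 4 genes, and -0.0677 with no filter. No paired analysis was possible because all clones form 1 group and their numbers pair nothing. The depth of clone 16, the smallest library, limits what low genes can show.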

Other observations

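Among the genes outside chromosomes 3, 14 and 15 that stood apart in clone 16, some abundant ones are given here that were chosen after their values were seen. The basement-membrane proteoglycan Hspg2 stood at 1686 CPM in clone 16, against a lowest, median and highest of 296, 685 and 838 CPM in the other 10 (1.37). Ddit4, an inhibitor of mTORC1 signalling that stress induces, stood at 334 CPM in clone 16 and 58 to 222 in the other 10. The growth factor Pdgfa stood at 201 CPM in clone 16 and 74 to 128 in the other 10. These were higher than in every other clone. Dusp6, the ERK phosphatase, is given only for lying above all 10, at 136 CPM in clone 16 and 10.5 to 111 in the other 10. Of the 16 measured ERK pathway genes outside chromosomes 3, 14 and 15, 0 stood apart higher. Clone 16 was above all 10 at 1 of them (9.79% of the comparison genes) and below all 10 at 4 (13.3%). Their median difference was 0.01.

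On the lower side E-cadherin, Cdh1, the main adhesion protein of embryonic stem cells, stood at 295 CPM in clone 16, against a lowest, median and highest of 519, 684 and 1014 CPM in the other 10 (-1.29). The pluripotency-associated factor Sall1 stood at 147 CPM in clone 16 and 275 to 479 in the other 10, and the Wnt co-receptor Lrp5 at 60.6 CPM in clone 16 and 127 to 322 in the other 10. The nephrin gene Nphs1 stood at 47.1 CPM in clone 16 and 54.1 to 169 in the other 10. No other clone was as low at any of these 4 genes.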
